A study of Mus musculus with 38 samples.

Results

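The comparison set ribosome-bound RNA of Olig2 cells in a mouse glioma that the submitters call Pdgf Cre against ribosome-bound RNA of Olig2 cells in normal adult cortex. It was chosen by the labels alone: 3 arrays of Olig2 cells from the Pdgf Cre tumour and 3 arrays of cortical oligodendroglia, which are 6 of the 38 arrays in the series. The study used translating ribosome affinity purification (TRAP), in which a tagged ribosomal protein made in 1 cell type is pulled down from tissue together with the mRNA it carries. It profiled cell types of adult mouse cortex in a first dataset and Olig2 cells of several variants of a glioma model in a second, with total RNA of each tissue beside them. The RNA was amplified in 2 cycles and hybridised to Affymetrix arrays, 1 array per sample.

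The tumour samples were dissected tumours from mice in which a tumour had been induced, and the cortical samples were dissected cortex of wild-type adult mice, in pools of at least 2 mice. All mice were a mix of the c57/bl6j, FVB and Swiss-Webster strains. The labels call the cortical cells oligodendroglia, and Olig2 is made at several stages of the oligodendrocyte lineage. The labels do not give the transgene that tags the ribosomes or the promoter that drives it. The sources used here do not say what was delivered to make the tumour, which alleles the Cre acted on, how old the tumour mice were, or whether tumours were pooled, so the groups are named as the labels name them. Other groups enter below only where a difference is set against them: Olig2 cells of the Pdgf and Recruited tumours, cortical progenitors (from samples titled Pdgfra), total RNA of the Pdgf Cre tumour (each with 3 arrays) and total RNA of cortex (5 arrays).

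Oligodendrocyte progenitors are dividing cells of the adult brain that carry the PDGF receptor alpha, stop dividing, pass through a committed precursor stage and then make myelin. Olig2 is the transcription factor that marks the whole lineage, and it also marks many cells of PDGF-driven gliomas. PDGF signalling keeps progenitors dividing, while withdrawal from the cell cycle goes with the start of the myelin programme.

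Values are log2 signals. A level under log2 of 50 (5.64) is called dim here and treated as below a usable limit, and a gene was tested if it lay above that limit in at least 3 arrays, which 9799 of 15644 genes did. A gene passed, and is said to have risen or fallen, if its adjusted p from limma was under 0.05 and the difference was at least 2-fold. The replicates of each group correlated at 0.9885 to 0.9926 (Pdgf Cre) and 0.9873 to 0.9958 (cortical Olig2) (Pearson's r across genes, which are not independent replicates). The 3' to 5' log2 difference of the actin control, a measure of RNA integrity and amplification, was 3.01 ± 0.38 (SD, n = 3) in Pdgf Cre and 2.69 ± 0.25 (SD, n = 3) in cortical Olig2 arrays. That of the Gapdh control was 3.96, 2.79 and 3.13 in Pdgf Cre (3.29 ± 0.60, SD, n = 3) and 2.73, 1.99 and 2.38 in cortical Olig2 arrays (2.37 ± 0.37, SD, n = 3), so for Gapdh every tumour array lay above every cortical one. The part of this in the differences below was not tested. By the study's description the tumours form the second dataset and the cortical cell types the first, so dataset and tumour cannot be told apart. No sample label gives a dataset or batch. Titles of the cortical Olig2 arrays end in .Cel like those of the tumours, and those of the other cortical arrays in .cel. Nothing in the labels says how separate the replicates were, so p-values measure the spread between these samples only. In RNA pulled from a mixture of Olig2 cells, fewer cells of a type and less RNA per cell cannot be told apart.

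Of the 9799 tested genes, 1739 were higher (17.7%) and 1795 lower (18.3%) in Pdgf Cre tumour Olig2 cells. These shares are the background for the counts of list members below, and no list was tested as a set. The groups did not overlap for 3507 of the 3534 genes that passed, which the choice of these genes by the same arrays largely fixes. A fitted difference of at least 10-fold was found for 653 of them. That count takes dim levels as they stand, so it is not a count of usable 10-fold changes. The median difference over all tested genes was 0.03 on the log2 scale, and its median size was 0.70. In 1725 of the genes that passed, both group means were above the dim limit; in 618 only the Pdgf Cre mean was dim, in 590 only the cortical mean, and in 601 both were, so that no fold is given for those. Under scaling to the array's spike-in controls the counts were 2248 higher and 1379 lower, which takes the share of higher genes among those called from 49.2% to 62.0% and moves the median of all genes to 0.35. The plot of group means for all tested genes shows these calls with 14 genes named.

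**Figure D1:**
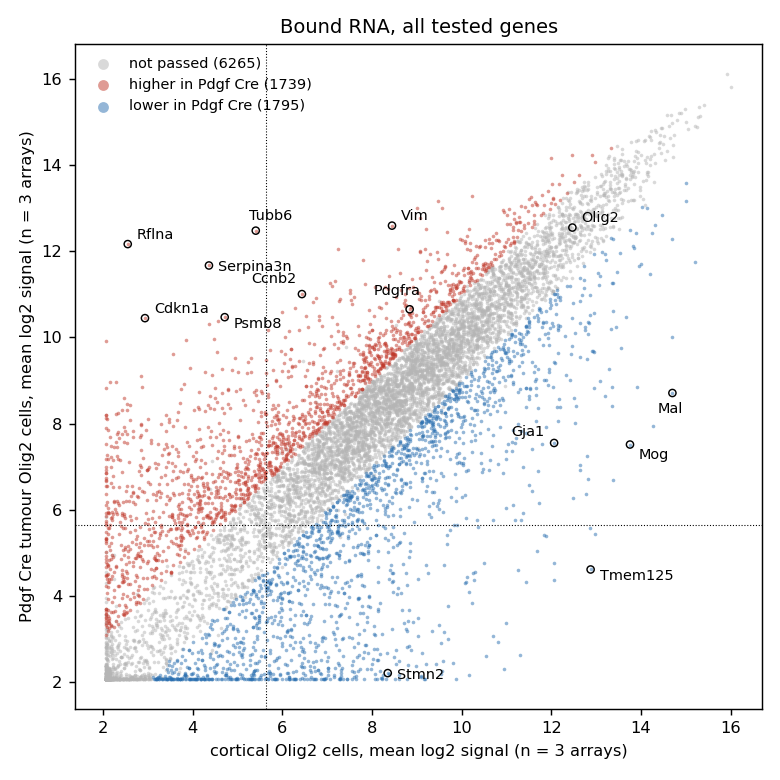
Mean log2 signal of each of the 9799 tested genes in cortical Olig2 cells (horizontal axis) and in Pdgf Cre tumour Olig2 cells (vertical axis), 3 arrays each. Red points rose (1739), blue points fell (1795) and grey points did not pass; dotted lines mark the dim limit of 5.64.

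Olig2 itself did not differ at the threshold. Its log2 signal was 12.72, 12.53 and 12.41 in Pdgf Cre arrays 1, 2 and 3 and 12.44, 12.46 and 12.51 in the cortical arrays. The groups overlapped, and the difference of 0.08 (SE 0.40, adjusted p = 0.891 by limma) did not pass. Pdgfra, the receptor that takes up PDGF on progenitors, stood at 10.66, 10.56 and 10.74 in the tumour and 8.79, 8.77 and 8.96 in cortex. All tumour arrays lay above all cortical ones, and Pdgfra rose 3.51-fold (log2 difference 1.81, SE 0.50, adjusted p = 0.00264). Cspg4, which encodes the NG2 proteoglycan of the progenitor surface, read 11.83, 11.07 and 11.56 against 9.11, 8.37 and 8.42, a 7.25-fold rise (adjusted p = 9.03e-05). Lhfpl3 rose 2.81-fold and Ptprz1, a receptor phosphatase of progenitors, 2.85-fold. Over the 12 tested oligodendrocyte progenitor markers, 4 rose, none fell and the median difference was 0.09, close to that of all genes. With the deposited values 2 of the oligodendrocyte progenitor markers fell. Olig2 was thus far above the dim limit in both groups, as the labels have it.

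The myelin genes were all lower. All 14 tested markers of mature, myelinating oligodendrocytes fell, with a median difference of -4.92 against 0.03 over all genes. Mog, a protein of the outer face of myelin, read 9.06, 8.13 and 5.35 in the tumour and 13.76, 13.72 and 13.80 in cortex. It was 75.8-fold lower (log2 difference -6.24, SE 0.82, adjusted p = 1.57e-07), and its tumour arrays were far apart from each other while the cortical arrays were nearly equal. Opalin, a membrane protein found in central myelin, read 7.65, 7.86 and 4.59 against 13.28, 13.30 and 13.58, which is 103-fold lower (adjusted p = 9.76e-09). Mag, which sits where myelin meets the axon, read 8.09, 7.54 and 5.47 against 12.70, 12.75 and 12.46 (48.7-fold lower, adjusted p = 1.33e-08). Array 3 was the lowest of the tumour arrays for each of these genes, yet no tumour array came near the cortical ones. Ermn, a cytoskeletal protein of late oligodendrocytes, was 84.9-fold lower. Aspa, the enzyme that splits N-acetylaspartate, was dim in the tumour and at least 62.3-fold lower. Cnp, an enzyme abundant in myelin, read 9.78, 9.54 and 8.50 against 13.27, 13.39 and 13.21 and was 16.2-fold lower (adjusted p = 7.01e-09). The linear signal summed over the 14 markers was 4667 to 10634 in the Pdgf Cre arrays and 117081 to 129436 in the cortical arrays.

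Other large falls were outside that list. Mal, a raft protein of compact myelin, read 9.61, 9.15 and 7.36 against 14.65, 14.69 and 14.77 and was 63.7-fold lower (adjusted p = 6.64e-11). Car2, the carbonic anhydrase of oligodendrocytes, was 79.6-fold lower, Pdlim2 68.9-fold, Ppp1r14a 74-fold, S1pr5, a sphingosine-phosphate receptor, 52.8-fold and Tppp, a tubulin-binding protein that nucleates microtubules in myelinating processes, 46.6-fold. Tmem125 read 4.85, 5.16 and 3.82 in the tumour, dim in every array, against 12.69, 13.02 and 12.92. It was at least 151-fold lower, Efhd1 at least 155-fold, Gpr37 at least 149-fold, Evi2a at least 85.5-fold, Adssl1 at least 85.4-fold, Tppp3 at least 66.3-fold and Itih3 at least 66.1-fold. An "at least" fold is taken against the dim limit, since 1 group was below it.

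The stage between progenitor and myelinating cell was lower too. Of the 10 tested markers of committed precursors, 6 fell and 1, dim in both groups, rose, with a median of -2.17. Cnksr3, a signalling scaffold, read 8.95, 8.91 and 8.63 against 12.95, 12.89 and 13.01 and was 17.4-fold lower (adjusted p = 1.25e-12). Enpp6, a choline phosphodiesterase of newly formed oligodendrocytes, was at least 5.78-fold lower, Cemip2 at least 4.05-fold and Tcf7l2, the Wnt effector that acts as cells start to differentiate, at least 2.23-fold. The plot of single arrays shows the myelin, cell cycle and identity genes side by side.

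**Figure D2:**
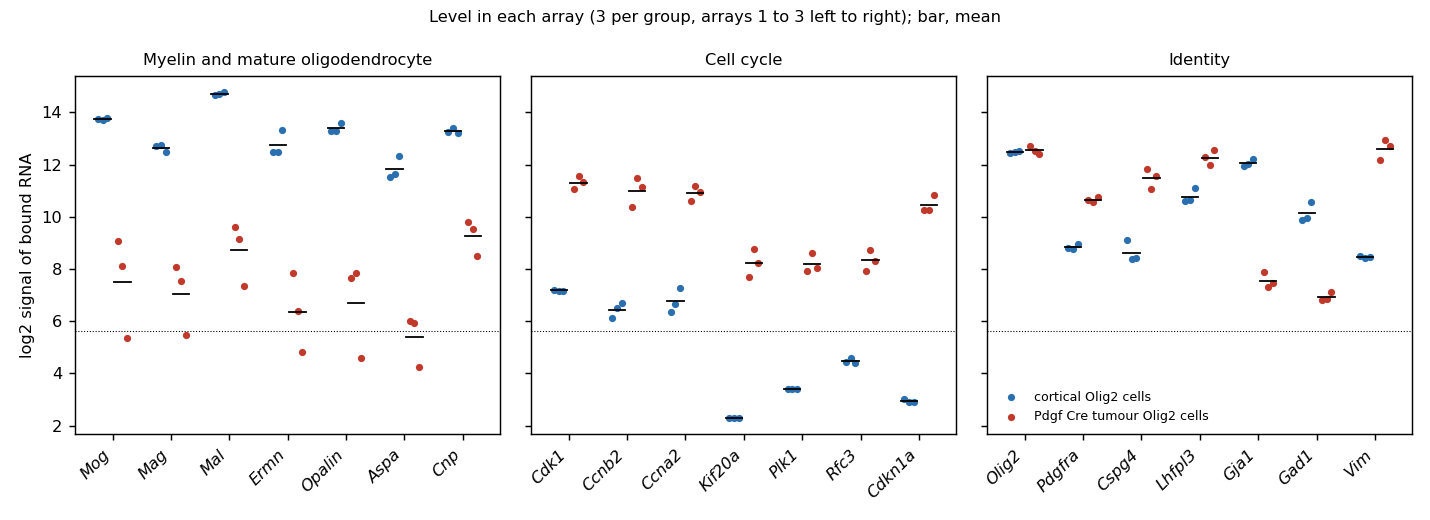
Log2 signal of bound RNA in each of 3 cortical Olig2 arrays (blue) and 3 Pdgf Cre tumour Olig2 arrays (red), with the mean as a bar and the dim limit of 5.64 dotted. Myelin genes lie lower in every tumour array and lowest in array 3, cell cycle genes lie higher in every tumour array, and Olig2 overlaps.

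Genes of cell division went the other way without exception among those tested. All 20 tested mitosis genes and all 20 tested DNA replication genes rose, with medians of 4.16 and 2.56. With levels under the dim limit set to it these medians were 3.54 and 2.52. Of each list 1 further measured gene was too dim to test. The cortical mean was dim for 12 of the 21 measured mitosis genes and 5 of the 21 replication genes. A gene could enter the test through tumour arrays alone, so these full counts are partly fixed by the filter. Cdk1, the kinase that starts mitosis, read 11.06, 11.55 and 11.33 in the tumour and 7.20, 7.16 and 7.17 in cortex. It rose 17.5-fold (log2 difference 4.13, SE 0.74, adjusted p = 2.29e-05). Ccnb2, a cyclin that partners Cdk1, read 10.39, 11.50 and 11.13 against 6.10, 6.50 and 6.71 and rose 23.7-fold (adjusted p = 3.91e-07). The groups lay far apart for both genes. Kif20a, a kinesin needed to finish cell division, read 7.70, 8.76 and 8.23 in the tumour but was dim in every cortical array and rose at least 6-fold. Plk1, a mitotic kinase, rose at least 5.85-fold, Ttk, a spindle checkpoint kinase, at least 3.73-fold and Kif11, the motor that pushes the spindle poles apart, at least 2.55-fold. Among the largest rises of all genes were Ccna2 (17.8-fold), Nusap1 (17.5-fold), Cdca3 (18.5-fold) and Sgo1, the protector of sister chromatid cohesion (21-fold).

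In DNA replication, Cdc45, part of the helicase that opens the double strand, read 9.62, 10.62 and 10.21 against 6.08, 6.28 and 6.08 and rose 16-fold (adjusted p = 5.14e-09). Rfc3, a subunit of the clamp loader, read 7.94, 8.74 and 8.32 against 4.42, 4.60 and 4.40 and rose at least 6.46-fold (adjusted p = 1.23e-17). Tk1, the thymidine kinase of S phase, rose at least 11.7-fold and Pole, the leading strand polymerase, at least 6.95-fold. Array 1 was the lowest of the 3 tumour arrays for each of these replication genes apart from Pole, where it was level with array 3, and still lay above every cortical array.

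Promoters of 4 genes of these groups and of the interferon group below are shown to put letters beside the values: each holds a motif known from genes of its group. They were picked after their values and motifs had been seen. Each is the 250 bases before the annotated start, read 5' to 3' on the gene's strand from RefSeq (GRCm38.p6): Ccnb2 at chr9:70421555-70421804 (minus strand), Cdk1 at chr10:69352913-69353162 (minus strand), Rfc3 at chr5:151651209-151651458 (minus strand) and Ifit1 at chr19:34640639-34640888 (plus strand). Capitals mark CCAAT (bound by NF-Y) and TTTGAA (the letters of the cell cycle homology region, CHR). In Rfc3 they also mark TTTNGCGC (an E2F motif). In Ifit1 they mark GAAA and GAAA with any 2 bases between them (the interferon-stimulated response element, ISRE). Each motif is marked on either strand.
Ccnb2: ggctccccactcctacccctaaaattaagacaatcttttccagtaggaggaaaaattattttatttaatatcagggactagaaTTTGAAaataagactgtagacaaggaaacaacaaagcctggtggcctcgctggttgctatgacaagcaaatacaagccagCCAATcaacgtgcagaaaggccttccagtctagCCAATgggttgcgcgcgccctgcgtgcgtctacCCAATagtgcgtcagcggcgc
Cdk1: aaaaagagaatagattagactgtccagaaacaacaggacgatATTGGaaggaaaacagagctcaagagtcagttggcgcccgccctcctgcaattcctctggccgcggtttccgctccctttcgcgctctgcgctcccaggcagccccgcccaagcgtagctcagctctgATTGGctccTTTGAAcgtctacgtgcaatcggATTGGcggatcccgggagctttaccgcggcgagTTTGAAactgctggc
Rfc3: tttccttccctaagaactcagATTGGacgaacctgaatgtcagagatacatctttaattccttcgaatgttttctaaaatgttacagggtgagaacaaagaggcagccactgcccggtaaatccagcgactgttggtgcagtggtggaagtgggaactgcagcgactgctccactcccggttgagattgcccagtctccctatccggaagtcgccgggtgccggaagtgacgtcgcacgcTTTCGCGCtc
Ifit1: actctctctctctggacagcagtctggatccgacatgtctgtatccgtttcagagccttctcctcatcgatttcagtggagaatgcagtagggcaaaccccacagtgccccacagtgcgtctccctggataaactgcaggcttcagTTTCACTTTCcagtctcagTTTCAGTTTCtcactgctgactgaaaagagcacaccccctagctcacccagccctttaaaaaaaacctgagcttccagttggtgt
Ccnb2 held 3 CCAAT and 1 TTTGAA, Cdk1 3 CCAAT and 2 TTTGAA, Rfc3 1 CCAAT and 1 E2F motif and Ifit1 2 response elements. In Ccnb2 the TTTGAA lies upstream of all 3 CCAAT, and whether it acts as a CHR was not tested. In Cdk1 an E2F motif is also present and is not in capitals. Over the 27025 genes with a promoter in the table, CCAAT was found in 37.5%, TTTGAA in 18.3%, TTTNGCGC in 1.31% and the ISRE in 3.46%. Over the 7978 tested genes with a promoter the shares were 40.9%, 12.5%, 2.47% and 2.93%. Of the mitosis genes with a promoter, 13 of 16 held CCAAT and 6 of 16 TTTGAA. Of the DNA replication genes 10 of 16 held CCAAT, 3 of 16 TTTGAA and 3 of 16 TTTNGCGC, and of the type I interferon response genes 3 of 7 held the ISRE. CCAAT and TTTNGCGC were also found in a group outside cell division: of the 9 antigen presentation genes with a promoter 8 held CCAAT and 2 TTTNGCGC. Of these 9, 1 held the ISRE. A match is a description of these letters in this window.

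The genes that govern entry into the cycle rose as well, in 13 of the 14 tested, with a median of 2.35 and none lower. With levels under the dim limit set to it that median was 1.74, and the cortical mean was dim for 8 of the 16 measured. E2f7, an E2F repressor that the cycle itself induces, read 7.64, 8.95 and 8.38 against 2.41, 2.43 and 2.43 and rose at least 6.41-fold (adjusted p = 2.15e-08). Myc read 8.59, 8.42 and 7.76 against 4.71, 4.72 and 4.69, at least 6.11-fold higher, and Mycn 7.85, 8.15 and 8.01 against 4.59, 4.60 and 4.58, at least 5.13-fold higher. E2f2 rose at least 1.31-fold from dim cortical levels.

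Inhibitors of the cycle did not move as 1 group: of 11 tested, 5 rose, 2 fell and the median was 0.42. Cdkn1a, the p21 inhibitor, read 10.25, 10.26 and 10.84 in the tumour and 3.03, 2.90 and 2.89 in cortex. It was dim in cortex and rose at least 27.9-fold (adjusted p = 4.05e-12). Cdkn2b, the p15 inhibitor of Cdk4 and Cdk6, read 11.50, 11.70 and 12.21 against 7.94, 7.51 and 7.92 and rose 16.1-fold (adjusted p = 5.16e-06). Cdkn1b, the p27 inhibitor that accompanies cycle exit in the lineage, read 7.40, 6.71 and 6.84 against 4.17, 4.20 and 4.15 and rose at least 2.53-fold. Cdkn1c, the p57 inhibitor, went down 3.92-fold, from 9.62, 9.57 and 9.73 to 7.70, 7.85 and 7.46 (adjusted p = 0.000108). Cdkn2a was below the limit for testing.

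Targets of p53 were mixed, with 4 of 14 higher, 2 lower and a median of 0.09, near that of all genes. Only 1 was lower when just the 6 arrays compared were fitted, with spike-in scaling, and in 5 of the 6 fits that leave out 1 array. Besides Cdkn1a, the apoptosis gene Bbc3 read 6.58, 6.61 and 6.60 against 3.53, 3.29 and 2.95, at least 1.93-fold higher. Sesn2, a stress-induced brake on mTOR, read 9.43, 9.41 and 9.43 against 7.25, 7.17 and 7.25 and rose 4.6-fold (adjusted p = 1.18e-06).

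In the PDGF and receptor tyrosine kinase group, 6 of 16 tested genes rose and 7 fell, with a median of -0.53. Of these, 1 that rose and 3 that fell were dim in both groups. With levels under the dim limit set to it 3 fell and the median was 0. The ligand gene Pdgfb was dim in all 6 arrays, so no fold is given. Etv4, a transcription factor switched on by ERK signalling, read 8.91, 8.49 and 8.57 against 6.20, 5.54 and 4.51, at least 7.09-fold higher (adjusted p = 1.51e-06). Fgfr2, an FGF receptor of myelinating cells, was at the lowest level of the arrays, 2.08, in every tumour array and 7.97, 7.97 and 8.38 in cortex, at least 5.5-fold lower. Etv1, another factor of the same family as Etv4, fell at least 1.57-fold. With spike-in scaling 4 rather than 7 of the PDGF ligands, receptors and RTK feedback genes fell.

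Of the 16 tested genes of the PI3K, Akt and mTOR pathway, 4 rose and none fell (median 0.15). Over all tested genes 17.7% rose and 18.3% fell. Eif4ebp1, the translation repressor that mTOR inactivates, read 9.52, 9.46 and 9.21 against 6.63, 6.53 and 6.65 and rose 6.92-fold (adjusted p = 8.62e-05). Irs2, an insulin receptor substrate, rose 2.55-fold. Tsc2, a brake on mTOR, rose 2.03-fold, which was under 2-fold in 3 of the 6 fits that leave out 1 array. With deposited values 2 of the PI3K, Akt and mTOR pathway genes rose and 1 fell. The plot of list members shows all of these groups.

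Interferon response and antigen presentation genes were higher in the tumour, and far higher in 1 of its arrays. Of the 8 tested type I interferon response genes, 6 rose (median 4.79), and of the 12 tested antigen presentation genes, 11 rose (median 3.52). With levels under the dim limit set to it these medians were 1.87 and 1.95, since most cortical levels were dim. Psmb8, a subunit of the immunoproteasome, read 12.59, 10.01 and 8.81 against 4.72, 4.73 and 4.70 and rose at least 28.4-fold (adjusted p = 0.00195). H2-Aa, a class II antigen presentation gene, read 11.60, 5.49 and 5.49 against 2.08 in each cortical array, so only Pdgf Cre array 1 was above the dim limit. Usp18, a brake on interferon signalling, read 10.30, 7.41 and 5.86 against 2.08, 2.17 and 2.08. Igtp, an interferon-induced GTPase, read 13.38, 9.56 and 8.82 against 6.19, 5.91 and 5.86, a 24.2-fold rise (adjusted p = 0.0103). In all of these array 1 was far above arrays 2 and 3, while the groups did not overlap.

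Ifitm3, an interferon-induced membrane protein that blocks virus entry, read 12.13, 9.43 and 8.93 against 5.89, 5.61 and 5.53 and rose 22.4-fold (adjusted p = 5.47e-05). Irf9, part of the complex that binds the response element shown for Ifit1, rose at least 9.6-fold, Oasl2 at least 5.87-fold, Psmb9 at least 11.1-fold and Ifit1 at least 2.88-fold. Without Pdgf Cre array 1, 5 of the 12 antigen presentation genes rose (median 2.41) and 5 of the 8 type I interferon response genes (median 3.71). The calls of H2-Aa (adjusted p = 0.0734), H2-Eb1 (0.0812) and Igtp (0.0953) were then lost. With every level under the dim limit raised to it, an alternative added after the data were seen, 3 of the antigen presentation genes and 2 of the type I interferon response genes passed. Array 1 was also the highest in total RNA of the Pdgf Cre tumour: H2-Aa read 12.94, 8.95 and 8.94 there and Igtp 12.91, 8.87 and 7.74. A single high array was not particular to the Pdgf Cre tumour. In Recruited bound RNA H2-Aa read 10.27, 2.84 and 2.51 and Igtp 12.96, 5.57 and 5.59. In Pdgf bound RNA H2-Aa read 4.58, 5.03 and 7.28 and Igtp 9.15, 8.80 and 10.52.

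Markers of microglia and macrophages, which can make antigen presentation proteins too, are given beside them, and their part in these differences was not tested. Of the 11 tested, 4 rose, none fell, 7 did not pass and the median was 0.79. The list median was 3.02, 2.56 and 3.18 in Pdgf Cre arrays 1, 2 and 3, under the dim limit in each. That of the type I interferon response genes was 10.33, 7.40 and 6.32. Without array 3, 2 of the microglia and macrophage markers rose. Ctss, a protease of microglia, read 10.11, 7.72 and 9.71 against 7.25, 7.04 and 6.93 and rose 4.31-fold (adjusted p = 0.0121), a call lost without array 1 (adjusted p = 0.0777) or array 3 (0.0531). C1qb read 6.70, 5.24 and 7.30 against 3.19, 3.22 and 3.19. The summed signal of the 15 measured markers was 329 to 1309 in Pdgf Cre bound RNA, 188 to 219 in cortical Olig2 cells and 25750.3 to 49203 in total RNA of the Pdgf Cre tumour. The mean of 13 of the 15 was dim in Pdgf Cre bound RNA. Among these, Csf1r and Tyrobp rose from lower dim levels, and Itgam, Cx3cr1, P2ry12 and Trem2 were at the lowest level of the arrays, 2.08. Levels of these last genes in total RNA of the tumour are not given here. The 10 measured lymphocyte and granulocyte markers were all too dim to test, with a summed signal of 42.3 in each Pdgf Cre array.

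**Figure D3:**
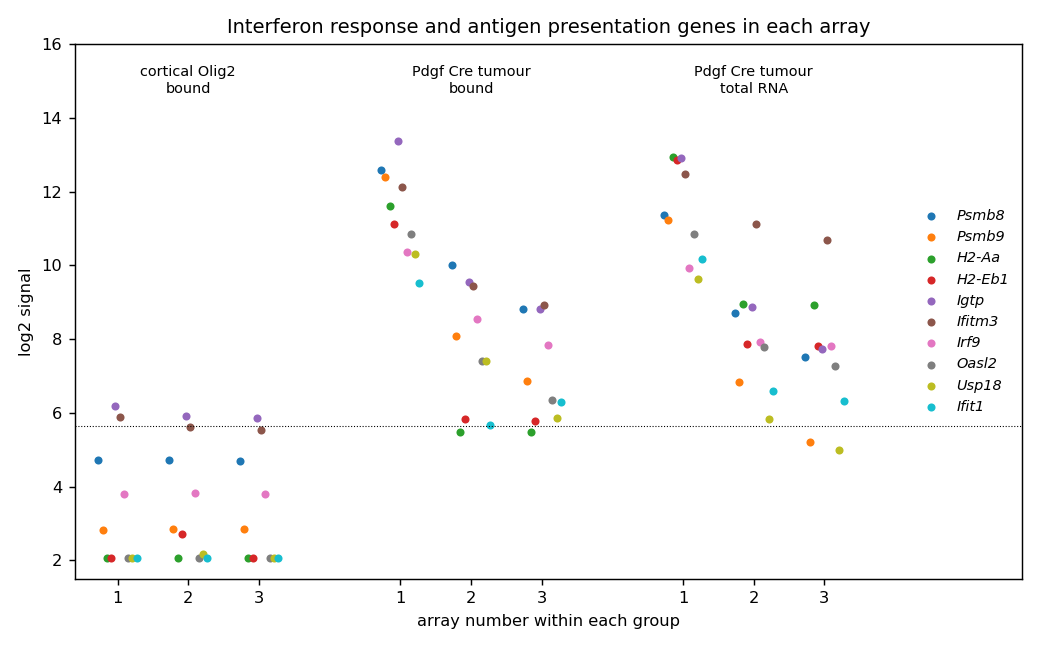
Log2 signal of 10 interferon response and antigen presentation genes in each array of cortical Olig2 bound RNA, Pdgf Cre tumour bound RNA and Pdgf Cre tumour total RNA (3 arrays each), with the dim limit of 5.64 dotted. In both tumour groups array 1 is the highest for each gene (H2-Aa 11.60 in bound and 12.94 in total RNA).

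Markers of other neural cells were lower in the tumour. Of the 14 tested astrocyte markers 11 fell and none rose (median -2), and of the 14 neuron markers 13 fell, 5 of them dim in both groups (median -2.11). Gja1, the main gap junction protein of astrocytes, read 7.89, 7.30 and 7.46 against 11.96, 12.02 and 12.21 and was 22.9-fold lower (adjusted p = 2.29e-18). Gjb6, another astrocyte connexin, was at least 22.3-fold lower and Aldh1l1, a folate enzyme used to mark astrocytes, at least 10.4-fold. Stmn2, a neuronal microtubule regulator, read 2.21, 2.21 and 2.20 against 8.26, 8.41 and 8.39, at least 6.54-fold lower, and Rbfox3 was at least 5.31-fold lower. Gad1, which makes GABA, stayed above the limit in both groups and was 9.26-fold lower. The summed astrocyte signal was 12854 to 21678 in the tumour and 51508 to 52806 in cortex, and that of neurons 1791 to 2936 against 9752 to 14969.5. What share of these differences comes from cells other than Olig2 cells in either preparation was not tested.

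Endothelial and perivascular markers were mostly dim. Of the 5 tested endothelial markers 2 rose: Vwf, which reads 9.13, 9.48 and 8.89 against 5.33, 5.25 and 5.06, at least 11.5-fold higher, and Eng, dim in both groups. Of the 11 tested pericyte, smooth muscle and fibroblast markers 1 rose, Cspg4, which is shared with progenitors, and 1 fell, Pdgfrb, dim in both groups. When just the 6 arrays compared were fitted 3 of these pericyte, smooth muscle and fibroblast markers rose, and with spike-in scaling 2 did. Of the 5 tested ependymal and choroid plexus markers 0 passed by limma and 0 had an unadjusted p under 0.05.

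Matrix and mesenchymal genes rose in 9 of 21 tested and fell in 3 (median 0.33). With levels under the dim limit set to it, 4 rose and the median was 0. Cd44, the hyaluronan receptor, read 6.73, 6.76 and 8.06 against 2.10, 2.11 and 2.11, at least 2.91-fold higher. Timp1, a protease inhibitor, rose at least 2.31-fold and Fn1, fibronectin, at least 1.45-fold. Lama2, a laminin subunit that supports myelination, was at 2.08 in each tumour array against 7.27, 7.30 and 7.19, at least 3.06-fold lower. Vim, the intermediate filament of immature and reactive glia, read 12.16, 12.92 and 12.70 against 8.48, 8.42 and 8.44 and rose 17.7-fold (adjusted p = 1.54e-07). Among neural stem and immature neural genes 3 of 11 rose and 4 fell: Prom1, the CD133 antigen that also occurs in oligodendrocytes, was 19.5-fold lower and Hes5 11.1-fold lower.

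BMP and TGF-beta genes fell in 7 of 18 tested and rose in 4 (median -0.15). Among the falls were 3 Id genes, which encode inhibitors of differentiation that BMP induces. Id4 read 6.11, 6.17 and 6.16 against 11.73, 11.76 and 11.66, 47.6-fold lower (adjusted p = 1.32e-10). Id3 read 8.30, 7.60 and 7.42 against 11.64, 11.42 and 11.22, 12.6-fold lower, and Id1 was at least 2.11-fold lower. Bmpr2, a type II BMP receptor, read 7.27, 5.69 and 5.99 against 2.62, 2.65 and 2.64 and rose at least 1.6-fold.

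In the Notch group 2 of 10 rose and 2 fell, near the shares of all tested genes (17.7% and 18.3%). Hes5, the main Notch target of neural progenitors, read 7.0, 7.26 and 7.23 against 10.98, 10.60 and 10.34, while the receptor Notch1 read 7.83, 7.71 and 7.71 against 5.33, 5.32 and 5.32, at least 4.3-fold higher. Maml1, a coactivator of Notch, fell at least 2.71-fold and the ligand gene Dll3 rose 2.03-fold, a call that 3 of the 6 leave-one-out fits did not keep. Of the 12 Wnt genes 4 fell and 2, dim in both groups, rose. The feedback inhibitor Nkd1 read 5.12, 5.44 and 5.15 against 8.48, 9.03 and 8.29, at least 7.77-fold lower, and the receptor Fzd2 was at least 1.98-fold lower. Both Hedgehog genes that fell, Gli2 and Hhip, were dim in both groups.

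Axon guidance genes, which progenitors and oligodendrocytes use in migration and process growth, fell in 6 of 19 tested and rose in 4. Efnb3, an ephrin of myelinating cells, read 8.39, 8.40 and 8.40 against 12.30, 12.26 and 12, 13.8-fold lower, and the netrin receptor gene Unc5b was at least 7.39-fold lower. Of the potassium channel genes 4 of 12 rose and 3 fell. Kcna5 read 8.41, 8.35 and 8.35 against 4.38, 4.40 and 4.36, at least 6.62-fold higher, and Kcnd2 rose 4.5-fold. Of the synaptic adhesion and glutamate receptor genes 6 of 13 rose and 2 fell (median 0.88). With levels under the dim limit set to it, that median was 0. Grm5, a metabotropic glutamate receptor, read 8.78, 8.35 and 9.29 against 5.0, 5.0 and 5.21, at least 8.97-fold higher, and Nlgn1, a synaptic adhesion molecule, rose at least 2.15-fold. Grm7 fell at least 1.73-fold.

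Genes of ribosome building and translation rose in part of each list. Of the nucleolar and ribosome biogenesis genes 6 of 12 rose and none fell (median 0.95); nucleolin, Ncl, read 10.36, 9.73 and 10.28 against 7.63, 7.83 and 8.33, 4.57-fold higher (adjusted p = 5.05e-09). Of the translation factors 4 of 13 rose (median 0.78) and of the cytosolic ribosomal protein genes 3 of 6 (median 0.95), with Rpl22 2.64-fold higher. Rps6, Rps9, Eef1b2 and Eef2 lay at 2.02-fold to 2.24-fold, and each lost its call in at least 1 of the fits that leave out 1 array. With spike-in scaling 8 of the translation initiation and elongation factors and 5 of the cytosolic ribosomal protein genes rose. Of the 15 respiratory chain and ATP synthase genes 0 passed by limma, with differences from -0.90 to 0.89 (median 0.11), and 8 had an unadjusted p under 0.05. Uqcrc2, a core subunit of complex III, was 1.86-fold higher (adjusted p = 2.07e-06), short of 2-fold.

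Of the chromatin and DNA methylation enzymes 7 of 13 rose and none fell (median 1.78, or 0.83 with levels under the dim limit set to it). Dnmt1, the maintenance methyltransferase, read 10.39, 10.16 and 9.62 against 8.27, 7.77 and 6.04, 6.48-fold higher (adjusted p = 1.17e-06). Asf1b, a histone chaperone of S phase, rose 7.48-fold, the remodeller Hells at least 6.35-fold and Chaf1b at least 4.14-fold. Of the immediate early genes 6 of 12 rose and 2 fell (median 1.19, or 0.29 with levels under the dim limit set to it). Egr2 read 10.85, 11.07 and 10.77 against 7.30, 7.34 and 7.20, 12.3-fold higher, and Fos 13.45, 13.13 and 13.27 against 10.08, 10.63 and 9.97, 8.3-fold higher. Arc, a gene of active neurons, fell at least 8.27-fold.

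Of the 10 cholesterol synthesis genes 2 fell, Mvd 3.73-fold and Msmo1 2.95-fold, and none rose (median -0.37). Of the 14 hypoxia and glycolysis genes 4 rose and 2 fell. Adm, the hypoxia-induced hormone adrenomedullin, read 10.10, 9.44 and 9.57 against 7.64, 7.84 and 7.60, 4.02-fold higher, while Ndrg1, also a protein of myelinating cells, was 35.6-fold lower. Vegfa rose but was dim in both groups. Of the 14 chaperone genes 3 rose and 2 fell. Over all tested genes 17.7% rose and 18.3% fell, beside which the counts of these lists stand. Cryab, a small heat shock protein abundant in mature oligodendrocytes, was 3.6-fold lower, and without Pdgf Cre array 1 only 1 of the chaperone genes rose.

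Several of the largest rises were in no list. Rflna read 12.09, 12.24 and 12.17 against 2.54, 2.56 and 2.56, at least 92-fold higher (adjusted p = 2.71e-12). Tubb6, a beta tubulin, read 12.10, 12.70 and 12.64 against 5.65, 5.29 and 5.29, at least 114-fold higher (adjusted p = 2.83e-10). Serpina3n, a protease inhibitor of reactive glia, read 11.72, 11.30 and 11.99 against 4.37, 4.38 and 4.34, at least 65.2-fold higher (adjusted p = 7e-07). The tumour arrays of these genes lay close together and far above cortex. Moxd1 read 11.23, 11.43 and 8.52, with array 3 well below the others, and rose at least 26.9-fold. Klf10, a TGF-beta-induced repressor, rose at least 25.3-fold, Dach2 at least 20-fold and S100a10, the partner of annexin A2, 17-fold.

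The Pdgf Cre arrays were also set directly against those of the Pdgf and Recruited tumours, which the study describes as part of the same dataset. Against Pdgf tumour Olig2 cells 761 genes were higher (7.77%) and 869 lower (8.87%); against Recruited tumour Olig2 cells 1667 were higher (17%) and 1711 lower (17.5%). On the deposited scale, without normalization between groups, the share of higher genes among those called went from 46.7% to 29.3% against Pdgf and from 49.3% to 29.1% against Recruited. These comparisons share the Pdgf Cre arrays with each other and with the one against cortex, so each is given by its own values.

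Division genes were higher in the Pdgf Cre tumour than in the other tumours, in part of each list. Cdk1 read 9.63, 8.66 and 9.71 in the Pdgf arrays and 9.54, 7.98 and 7.32 in the Recruited arrays, all below the Pdgf Cre arrays. The differences were 1.98 against Pdgf (adjusted p = 0.0374) and 3.03 against Recruited (adjusted p = 0.000924). Ccnb2 differed by 2.20 and 3.21. Of the 20 tested mitosis genes 7 were higher than in Pdgf and 14 than in Recruited tumours, and of the 20 DNA replication genes 4 and 16, and none was lower. The list median of the mitosis genes was 9.53, 9.86 and 9.45 in the Pdgf Cre arrays, 7.54, 7.70 and 8.69 in Pdgf and 8.60, 7.42 and 6.81 in Recruited.

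All 14 tested myelin genes were lower in the Pdgf Cre tumour than in Recruited tumours. Against Pdgf tumours 7 were higher, 7 did not pass and none was lower. The signal summed over the 14, which was 4667 to 10634 in Pdgf Cre, was 5660 to 8148 in Pdgf, so these groups overlapped, and 51998 to 153005 in Recruited. Mog read 5.90, 4.23 and 5.10 in Pdgf and 11.32, 14.38 and 15.07 in Recruited. The Pdgf mean was dim, and the Pdgf Cre mean was 3.65-fold above the dim limit and higher than Pdgf (adjusted p = 0.0203 by limma). Pdgf Cre array 3 lay inside the range of the Pdgf arrays. Against Recruited the Pdgf Cre level was 6.08 lower on the log2 scale (adjusted p = 2.7e-07 by limma). For Mal the Pdgf mean was dim too, and the Pdgf Cre mean was 8.37-fold above the dim limit and higher than Pdgf (adjusted p = 1.98e-05 by limma). Part of the Pdgf arrays lay above the limit for Mal, so this fold is no lower bound. Against Pdgf tumours 0 of the 12 antigen presentation genes and 0 of the 8 type I interferon response genes passed by limma, and 1 and 0 had an unadjusted p under 0.05. The plot of list medians shows these groups array by array.

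**Figure D4:**
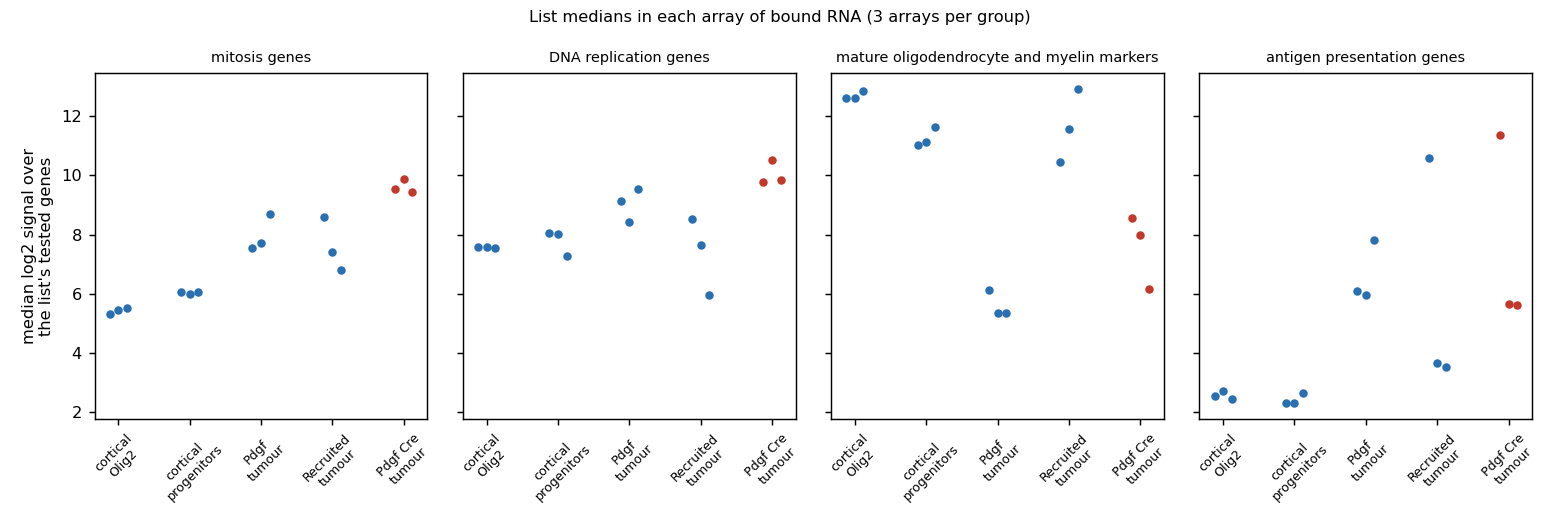
Median log2 signal over the tested genes of 4 lists in each array of bound RNA, 3 arrays per group, with Pdgf Cre in red. The mitosis genes are highest in Pdgf Cre (9.45 to 9.86), the median of the mature oligodendrocyte and myelin markers (6.18 to 8.57) lies above Pdgf and below Recruited, and the antigen presentation genes are high in 1 of 3 Pdgf Cre arrays (11.35). H2-Aa of that last list also read far higher in 1 of 3 Recruited arrays (10.27 against 2.84 and 2.51).

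Some genes were named because they passed in the same direction against cortex and against both other tumours, so their values here are a description. Pnmal2, a gene of the paraneoplastic antigen family, read 12.57, 12.13 and 11.46 in Pdgf Cre, 7.15, 7.04 and 7.52 in cortical Olig2 cells, 5.53, 4.43 and 5.54 in Pdgf and 3.85, 5.71 and 3.98 in Recruited tumours. Its mean was dim in both other tumours, and it was at least 85-fold higher than in Pdgf. In cortical progenitors its median was 10.95 and in cortex total RNA 12.60, so high levels were also found in normal tissue. Sesn2, Nell2 and Atrx, a chromatin remodeller, were also higher than in cortical Olig2 cells and than in both other tumours, and did not pass against cortical progenitors.

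Ckap2l, a spindle protein, read 8.59, 8.84 and 9.05 in Pdgf Cre and was at most 2.29 in the Pdgf arrays and 2.08 in each Recruited and cortical Olig2 array. Its median was 9.02 in total RNA of the Pdgf Cre tumour and 2.16 in that of the Pdgf tumour. Cdkn1b was dim in every Pdgf and Recruited array, so its mean of 6.98 in Pdgf Cre was at least 2.53-fold higher than in either. In the other direction Ank2, an ankyrin that anchors membrane proteins, read 2.84, 2.89 and 2.87 in Pdgf Cre against 7.23, 8.22 and 8.14 in Pdgf and 8.86, 9.33 and 9.46 in Recruited, so it was at least 4.66-fold lower than in Pdgf and at least 11.9-fold lower than in Recruited. Prss23, Asic2, Extl1 and Dusp28 were likewise dim in each Pdgf Cre array and lower than in both other tumours.

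Eif2s3y, a translation factor gene on the Y chromosome, was at 2.08 in each Pdgf Cre array of bound and of total RNA, against 4.98, 8.37 and 8.51 in cortical Olig2 cells and 9.29 to 9.65 in Pdgf tumours. In Recruited bound RNA it ranged from 2.08 to 10.92, so 1 Recruited array was level with the Pdgf Cre arrays. Xist, the X-inactivation RNA of female cells, was looked up after these values were seen. It read 7.77 to 7.78 in total RNA of the Pdgf Cre tumour, 2.65 to 2.67 in its bound RNA and at most 3.17 in total RNA of cortex. The labels give no sex, so sex and tumour model cannot be told apart here.

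Cortical Olig2 cells hold several stages, so the same tumour arrays were also set against cortical progenitors. In the tumour 2063 genes were higher (21.1%) and 2201 lower (22.5%) than in progenitors. All 20 mitosis genes and 17 of 20 DNA replication genes were higher in the tumour, and 12 of 14 myelin markers were lower, with median differences of 3.43, 2.27 and -2.53. Cdk1 differed by 4.21 (adjusted p = 1.41e-05) and Mog by -3.68 (adjusted p = 0.000262). Pdgfra itself read 10.31, 10.32 and 10.40 in the progenitors and differed by 0.31 (adjusted p = 0.611), which did not pass. The progenitor arrays stood apart in the actin control, with a 3' to 5' difference of 6.48 ± 0.47 (SD, n = 3), and the part of this in these differences was not tested.

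Each bound sample was last set against total RNA of its own tissue. The bound minus total difference was larger in the tumour than in cortex for 2226 genes (22.7%) and smaller for 2206 (22.5%), a share of 50.2% larger. With each array centred on its median the counts were 3818 and 1516 (71.6% larger), with a median over all genes of 0.70, and with the deposited values 1709 and 2665 (39.1% larger). Olig2 averaged 12.55 in bound and 11.28 in total RNA of the Pdgf Cre tumour, but 12.47 in bound RNA of cortical Olig2 cells and 6.18 in total RNA of cortex. Its bound over total difference was thus smaller in the tumour, by -5.02 on the log2 scale (adjusted p = 3.48e-09). The same held for all 12 tested oligodendrocyte progenitor markers, all 14 mature oligodendrocyte and myelin markers, 10 of 20 mitosis genes and 14 of 20 DNA replication genes, and none of these was larger. Cdk1 averaged 10.26 in total RNA of the tumour and 2.28 in total RNA of cortex, so the division genes were high in the whole tumour as well. Cdkn1a showed the opposite, with a larger bound over total difference in the tumour (adjusted p = 2.45e-05); since it was dim in cortical bound RNA no size is given.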

How the data were processed

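The authors deposited log2 expression values made with GCRMA (version not given), per the submitters' processing notes. All arrays of a group share a lowest deposited value of their own, so the groups may have been processed separately; how far this narrows the spread within a group was not measured. The deposited log2 values of all 38 arrays were quantile normalized together, control probe sets were left out and probe sets were named through GEO's platform annotation, with the symbols checked against RefSeq. Genes above log2 of 50 in at least 3 arrays were tested in 1 linear model of all groups with limma 3.58.1 in R 4.3.3, with Benjamini-Hochberg adjustment over all tested genes. The model had been run on simulated data with equal spread in all groups and with changed genes well above the dim limit. That run does not cover calls with a dim mean or groups of unequal spread. The deviations of Pdgf Cre bound and total arrays of the same number correlated at 0.621, 0.428 and 0.555, so these numbers pair the samples.

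Named genes are those of the model, the largest changes with both means above the limit and with 1 below it, up to 4 members of each list with the largest difference, and those that set the Pdgf Cre tumour apart from both other tumours. The members and lists were chosen with earlier results of these data known. Alternatives were other scalings, filters, blocks and sets of arrays, and leaving out each array.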

Additional observations from a re-analysis of the deposited data

Results flagged for a closer look

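The following were singled out because the Pdgf Cre tumour differed from another tumour model, or the tumour from cortex in its bound over total difference, by a direct test with limma. The counts are 761 higher and 869 lower genes against Pdgf tumours, 1667 and 1711 against Recruited tumours, and 2226 larger and 2206 smaller bound over total differences than in cortex. The 3 comparisons share the Pdgf Cre bound arrays.

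Among the named genes with large changes against cortex, these also differed from Pdgf tumours. Differences are fitted log2 values, Pdgf Cre minus Pdgf. Where a mean was under the dim limit the fitted value is no measure of size, and the fold against the limit is given for some of these genes. Both means were above the limit for 5 genes: Ccnb2 (2.20), Cdk1 (1.98), Cdca3 (1.95), Cdkn1a (1.52) and the filament gene Vim (1.40), whose arrays overlapped. In 6 genes both means were dim, so no fold is given: Aspa (2.02), Tmem125 (2.53), Itih3 (2.39), Tppp3 (2.06), Efhd1 (1.74) and Evi2a (-1.23).

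In 12 genes the Pdgf mean alone was dim. Of these Pnmal2 (6.89) was at least 85-fold higher, Sesn2 (5.13) at least 13.7-fold and Ckap2l (6.56) at least 9.08-fold. Nell2 (4.22) was at least 4.53-fold higher, Mag (2.42) at least 2.61-fold and Cdkn1b (4.29) at least 2.53-fold. The Pdgf Cre means of Mal (3.14) and Mog (2.43) were 8.37-fold and 3.65-fold above the limit. These are no lower bounds, since part of the Pdgf arrays lay above the limit for both genes. Ermn (3.24), Atrx (4.16), Ppp1r14a (3.84) and Mobp (3.68) were at least 1.64-fold, 1.56-fold, 1.55-fold and 1.08-fold higher. In 6 genes the Pdgf Cre mean alone was dim. Of these Eif2s3y (-7.41) was at least 14.4-fold lower, Ank2 (-5.00) at least 4.66-fold, Asic2 (-3.85) at least 3.38-fold, Extl1 (-3.87) at least 1.7-fold, Prss23 (-3.62) at least 1.39-fold and Dusp28 (-3.46) at least 1.24-fold. No group here has more than 5 arrays, and groups of 3 were not searched for single outlying arrays.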

How the results depend on the processing

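Against cortical Olig2 cells, the counts of higher and lower genes kept within 1.5 times of 1739 and 1795 under each alternative run, and lay between 1677 and 1727 and between 1759 and 1793 when 1 array was left out. With levels under the dim limit raised to it, the counts against cortical Olig2 cells were 1187 and 1221. With the deposited values, 1405 genes were lower than in Pdgf tumours, and 1074 were higher and 2617 lower than in Recruited tumours. With median centring 3818 genes had a larger bound over total difference. With levels under the dim limit raised to it, chosen after seeing the data, 449 genes were higher and 473 lower than in Pdgf tumours. Leaving out 1 array gave 710 to 774 higher and 773 to 934 lower genes against Pdgf, 1584 to 1827 and 1647 to 1854 against Recruited, 1992 to 2063 and 2147 to 2208 against progenitors, and 2105 to 2241 and 2137 to 2224 for bound over total. The cause of these shifts was not tested.

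With the replicate number as a block, the counts against cortical Olig2 cells were 1733 and 1795. Deviations of same-numbered arrays correlated at 0.057, 0.206 and 0.243, and those of differently numbered arrays at -0.221 to 0.073. Whether same-numbered arrays share more than a number was not tested. With only the 6 arrays compared and the block, 6 named genes changed call: Ctss, H2-Aa and H2-Eb1 lost it, Acta2, Lum and Ttr gained it, and 5 rather than 11 antigen presentation genes rose and 1 rather than 2 p53 targets fell. The cause was not tested. For bound over total, where the numbers pair the tumour samples, the block gave 2262 and 2268, and the block with all 38 arrays changed the call of none of the 184 named genes tested. Of the 163 named genes that passed, 14 lost the call when some array was left out and 40 with levels raised to the dim limit, so that limit is what most restricts the named results. No named gene reversed under any alternative run.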
